A study of Mus musculus with 4 samples.

Results

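The neural plate patterning factors described here are 10 genes chosen by name: Six3, Hesx1, Rax and Lhx5 of the rostral neural plate, the SoxB1 factors Sox1 and Sox3, Irx3, Gbx2 and Nkx1-2 of more caudal neural tissue, and Ptn, a secreted growth factor. All 10 were listed in the early head fold (EHF) count table, among 18640 genes. The mid-streak to late-streak (MS-LS) and bud-stage (OB-EB) tables listed 9 of them, among 16639 and 16341 genes, since Sox1 was unlisted in both. Whole TnEGP-CreERT2/+; R26Rtdtomato/R26Rtdtomato mouse embryos were dissociated and sequenced with the Chromium 3′ assay at E6+21h for MS-LS, E7+3h for OB-EB and E7+14h for EHF. Tamoxifen had been given at E6+5h for MS-LS, at E6+21h for OB-EB and at E7+7h for EHF, so that every library carried both alleles and had been exposed to tamoxifen, and no untreated or wild-type library was included. The inducible Cre is expressed from the T locus, which is active in the primitive streak, and the reporter was not used here.

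Each stage was 1 library of several embryos, and cells were not assigned to embryos. Stages therefore could not be compared across replicates, and no p-value was computed. The tables held 3635, 3994 and 3494 cells with medians of 4251, 2620.5 and 5584 unique molecular identifiers (UMIs) per cell. The 2 EHF tables held the same value at all 65128160 places and were counted as 1 library. Pairs of libraries shared 12 to 18 cell barcodes. Among cells with a sex call from X- and Y-linked transcripts, 51.7% were female at MS-LS, 63.2% at OB-EB and 85.7% at EHF, so stage and sex composition cannot be told apart. Levels are given as UMIs per 1000000 UMIs (CPM) with exact Poisson 95% intervals, and shares of cells with exact binomial (Clopper-Pearson) 95% intervals. Both cover counting error only.

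During gastrulation the anterior epiblast becomes neural plate, while signals from the anterior visceral endoderm, the prechordal plate and the node pattern it along its length. Wnt, Fgf and retinoic acid signals act in the posterior part, and the rostral plate is shielded from them by secreted antagonists. Six3 represses Wnt genes and is required for the forebrain. Hesx1 is a repressor needed for forebrain and pituitary development, Rax is needed for eye formation, and Lhx5 is a LIM homeobox factor of the anterior neural plate. Sox1 marks cells committed to neural fate, whereas Sox3 is already active in the epiblast and is X-linked. Irx3 opposes Six3 in the caudal forebrain, Gbx2 positions the midbrain-hindbrain boundary against Otx2, and Nkx1-2 is a marker of the caudal lateral epiblast and preneural tube.

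Of the 10 genes, 7 had an entry among the 32851 RefSeq promoters (GRCm38.p6). The 250 bases before the start of Six3, Hesx1, Gbx2 and Nkx1-2 are shown, 5′ to 3′ on the strand of the gene, because the former pair was higher in rostral and the latter in caudal cells below. Capitals mark CpG dinucleotides. The windows were chr17:85620584-85620833 (plus strand) for Six3, chr14:27000112-27000361 (plus strand) for Hesx1, chr1:89931177-89931426 (minus strand) for Gbx2 and chr7:132599638-132599887 (minus strand) for Nkx1-2. In GENCODE vM21, Six3 overlaps the opposite-strand gene Six3os1 and Gbx2 overlaps D130058E05Rik, and Nkx1-2 overlaps Fgfr2 on its own strand. The Six3 and Hesx1 windows lie inside the longer spans annotated there for these genes, the Six3 window overlaps an exon of Gm28528 and the Gbx2 window exons of Gbx2 and D130058E05Rik, and the Hesx1 and Nkx1-2 windows overlap no exon. Whether the counting used strand is not given in the sources used here, so reads of such neighbours cannot be told apart from those of the member.
Six3: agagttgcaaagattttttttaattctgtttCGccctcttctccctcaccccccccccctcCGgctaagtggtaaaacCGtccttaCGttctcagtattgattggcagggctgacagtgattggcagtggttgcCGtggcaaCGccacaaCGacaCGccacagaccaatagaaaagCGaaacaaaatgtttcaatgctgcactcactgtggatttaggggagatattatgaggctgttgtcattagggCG
Hesx1: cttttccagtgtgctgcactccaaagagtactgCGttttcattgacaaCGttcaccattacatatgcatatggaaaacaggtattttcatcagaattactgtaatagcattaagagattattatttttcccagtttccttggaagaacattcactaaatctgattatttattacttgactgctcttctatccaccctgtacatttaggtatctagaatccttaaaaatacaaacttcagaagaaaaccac
Gbx2: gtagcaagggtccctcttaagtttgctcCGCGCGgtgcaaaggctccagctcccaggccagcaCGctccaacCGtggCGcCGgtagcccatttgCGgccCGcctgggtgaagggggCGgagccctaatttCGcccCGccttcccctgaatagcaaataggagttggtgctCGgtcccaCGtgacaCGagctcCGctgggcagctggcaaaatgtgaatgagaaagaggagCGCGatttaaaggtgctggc
Nkx1-2: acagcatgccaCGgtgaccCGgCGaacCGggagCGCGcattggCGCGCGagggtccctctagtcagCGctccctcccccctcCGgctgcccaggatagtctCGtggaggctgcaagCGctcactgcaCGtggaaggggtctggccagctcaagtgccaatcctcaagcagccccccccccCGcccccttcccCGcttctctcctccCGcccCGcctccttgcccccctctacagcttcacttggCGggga
The Six3 and Hesx1 windows held 10 and 2 CpGs, and the Gbx2 and Nkx1-2 windows held 18 and 19, against a median of 6 over all promoters. The GC content was 48.8% and 34% in the former pair and 61.6% and 69.6% in the latter. The windows not shown did not follow this order. Irx3, higher in the rostral class below, had 13 CpGs and 56% GC. Ptn, higher in the caudal class, had 5 CpGs and 52% GC, and Sox1 had 29 CpGs and 71.2% GC. CTTTGA, a TCF/LEF core, TAATCC, an OTX core, TAATTA, a homeodomain core, and ACAATG, a SOX core, were searched on both strands with exact letters. None was found in the 250 bases of any of the 7 genes. Of all promoters, 13.8%, 6.25%, 4.84% and 10.7% held them.

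In the whole libraries, Nkx1-2 and Gbx2 had the largest ratios between EHF and OB-EB among the 10 genes. Nkx1-2 was at 1.06 CPM at MS-LS (0.637 to 1.65), 2.22 at OB-EB (1.46 to 3.23) and 58.2 at EHF (54.9 to 61.6). Gbx2 was at 2.12, 9.85 and 55.1 CPM, from 38, 120 and 1123 UMIs. Irx3 was at 10.5, 19.2 and 48.1 CPM and Ptn at 10.9, 21.3 and 51.3 CPM, so both were already detected at the first stage. Hesx1, Lhx5, Irx3, Gbx2, Nkx1-2 and Ptn were more than 2-fold higher at EHF than at OB-EB, among genes with at least 20 UMIs over both, a filter that Lhx5 (12 UMIs at OB-EB) passed through its EHF level. Of all genes, 18.2% of 14064 were higher, 7.10% were lower and 25.2% were past 2-fold in either direction. Over all genes the median log2 ratio was 0.36. Between OB-EB and MS-LS, Six3, Gbx2 and Nkx1-2 were more than 2-fold higher at OB-EB (log2 ratios 1.35, 2.22 and 1.07). Hesx1 was lower (-1.59), while 7.23% of 13273 genes were higher and 4.73% lower. The intervals of Six3 (0.658 to 2.059), Nkx1-2 (0.167 to 1.996) and Hesx1 (-2.233 to -0.985) reach within 2-fold. That of Gbx2 (1.682 to 2.786) does not. Nkx1-2, with 19 UMIs at MS-LS and 27 at OB-EB, passed the filter through its OB-EB level.

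Rostral genes were rarer than Irx3, Gbx2, Nkx1-2 and Ptn at EHF, though not at every stage, and did not move together. Six3 was at 1.61 CPM at MS-LS (29 UMIs), 4.11 at OB-EB (50 UMIs) and 6.97 at EHF (142 UMIs). Hesx1 was at 6.90 CPM at MS-LS, fell to 2.30 CPM at OB-EB and was at 10.9 CPM at EHF, and the intervals of the middle stage (1.53 to 3.32) and of its neighbours did not overlap. Lhx5 was at 0.668, 0.985 and 2.55 CPM. Rax was scarcely detected, with 5, 4 and 5 UMIs, each in a different cell. Sox3 was at 12.5, 9.11 and 6.14 CPM, and neither step passed 2-fold (log2 ratios -0.46 and -0.57). Sox1, listed at EHF alone, had 44 UMIs in 40 cells (2.16 CPM). A level in a whole library cannot tell fewer cells of a type from less RNA per cell, and cells of all tissues of the embryo enter it.

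**Figure D1:**
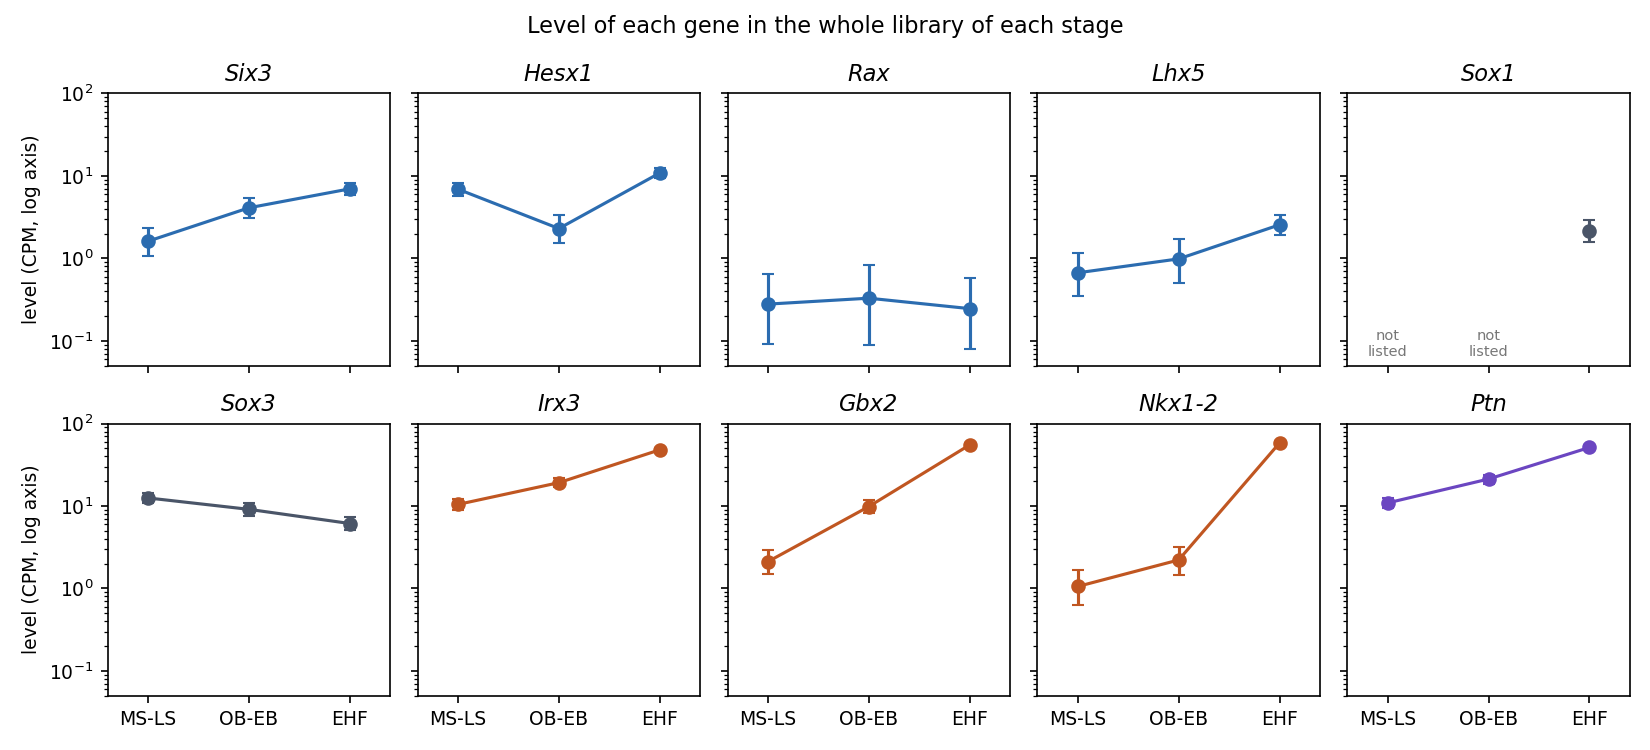
Level of each gene in the whole library of each stage, in CPM on a log axis, with exact Poisson 95% intervals over the UMIs of 1 library. Nkx1-2 stands at 58.2 CPM at EHF against 2.22 at OB-EB, Hesx1 has its lowest point at OB-EB, and Sox3 goes from 12.5 to 6.14 CPM.

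Cells of each stage were then clustered with the 10 genes held out of the variable genes, and clusters were named from marker lists that contained none of them. Genes that vary with the 10 remained among the variable genes, so the classes were not blind to rostral and caudal identity. At EHF, 30 clusters were found. A cluster with 173 cells was rostral neuroectoderm-like (median 7448 UMIs per cell), with Otx2, Sox2, Shisa2, Zic5, Pou3f1 and Sfrp1 detected. Another, with 159 cells, was caudal neuroectoderm-like (median 7163 UMIs), with Hes3 and Crabp2 among its detected markers and no UMI of Pax3. Its score, 0.60, exceeded that for epiblast by little (0.51). The summed level of the rostral markers was 844.5 CPM in the rostral class and 222.5 CPM in the caudal class, and that of the caudal markers was 376.6 and 775.2 CPM. The caudal markers did not set the caudal class apart from other caudal cells, since they stood at 753.3 CPM in presomitic and caudal mesoderm-like cells, 704.4 CPM in cluster 5 and 676.3 CPM in caudal epiblast-like cells. The caudal epiblast markers stood at 900.8 CPM in the caudal and 52.8 CPM in the rostral class, so the name of the caudal class rests on a narrow margin. The endoderm marker Cer1 had no UMI in either class, and Sox17 had none in the caudal class, while the summed endoderm markers stood at 762.5 CPM in the rostral and 530.9 CPM in the caudal class. Cluster 8 (145 cells), led by Ptn, Pim2 and Cxcl12, scored best for rostral neuroectoderm but had none of those markers among its 10 leading genes. It remained unnamed, as did cluster 5 (159 cells), led by Nkx1-2, Cdx1 and Nefm.

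Six3, Hesx1 and Lhx5 were highest in the rostral class at EHF, although at a clustering resolution of 8, which left 87 cells in that class and none in a caudal one, 0 of them were. Six3 was at 64.9 CPM there (52.3 to 79.7) and had no UMI in the caudal class. For 0 of 159 cells the exact 95% interval of the share with a UMI reaches 2.29%, which does not limit the share of cells that express it. The next levels of Six3 were 32.9 CPM in the notochord and node-like cells (12.1 to 71.6, from 6 UMIs), 32.1 CPM in the definitive endoderm-like cells (17.6 to 53.9) and 21.2 CPM in cluster 8 (11.6 to 35.5), which did not differ from one another beyond counting error. Hesx1 was at 94.9 CPM in the rostral class (79.4 to 112), 41.3 CPM in the definitive endoderm-like cells (24.5 to 65.3), 33.3 CPM in cluster 8, 33.0 CPM in the shallow cluster 14 (median 2096 UMIs, 10 UMIs of Hesx1) and 21.3 CPM in the anterior paraxial and pharyngeal mesoderm-like cells (12.2 to 34.5). Extraembryonic endoderm-like cells, at a median of 6432 UMIs, had 0.447 CPM of Six3 and 2.68 CPM of Hesx1. After every cell was thinned to 3500 UMIs, a Hesx1 UMI was found in 23.4% of 171 rostral cells (17.3 to 30.5) and 1.42% of 282 extraembryonic endoderm-like cells. Without thinning, these shares were 37.6% and 1.80%.

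Lhx5 lay almost entirely in the rostral class and cluster 8. Of its 52 UMIs at EHF, 41 lay in the rostral class (29.2 CPM, 21.0 to 39.7) and 8 in cluster 8 (12.1 CPM, 5.22 to 23.8), and no other class had more than 1. Rax had 2 UMIs in the rostral class, 2 in the definitive endoderm-like class and 1 in cluster 5, all under the floor of 3 UMIs, so no order among classes could be read.

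The SoxB1 genes differed in their distribution. Sox1 was at 16.4 CPM in the rostral class (10.4 to 24.6), 10.6 CPM in cluster 8 (4.26 to 21.8) and 8.43 CPM in the caudal class (4.04 to 15.5), with intervals that overlapped. These clusters held 40 of its 44 UMIs. Sox3 was highest in the caudal class, at 33.7 CPM (24.1 to 45.9), followed by 25.7 CPM in cluster 8, 23.1 CPM in cluster 14, 19.6 CPM in cluster 5 and 13.6 CPM in the rostral class (8.16 to 21.2). The intervals of the caudal and the rostral class did not overlap.

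Irx3 was found in neural, mesodermal and extraembryonic cells. It was at 148 CPM in the rostral class (129 to 170) and 142 CPM in cluster 8 (115 to 174), which did not differ beyond counting error, at 122 CPM in cluster 14 and at 89.9 CPM in cluster 17, whose best score was surface ectoderm. It was lower in the caudal class (55.6 CPM), in cluster 5 (8.58 CPM) and in the caudal epiblast-like cells (2.11 CPM). It was also present in anterior paraxial and pharyngeal mesoderm-like cells (82.4 CPM), paraxial mesoderm-like cells (79.2 CPM) and extraembryonic ectoderm-like cells (72.8 CPM), but was at 2.24 CPM in extraembryonic endoderm-like cells. Between the rostral and the caudal class Irx3 thus had the opposite order to Gbx2 and Nkx1-2, although it was grouped with them as a caudal gene.

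Gbx2 and Nkx1-2 were found in caudal neural, caudal epiblast-like and some caudal mesodermal cells. Gbx2 was highest in the caudal class, at 254.5 CPM (227 to 285), then at 171.5 CPM in cluster 5, 169 CPM in the caudal epiblast-like cells and 157 CPM in the presomitic and caudal mesoderm-like cells, and the intervals of the last 3 overlapped. Nkx1-2 was highest in the caudal epiblast-like cells, at 362 CPM (310.3 to 421), and in cluster 5, at 353 CPM (313 to 396), above the caudal class at 270.5 CPM (242 to 302). In the presomitic and caudal mesoderm-like cells Nkx1-2 was at 152.6 CPM (125.2 to 184.3). Cluster 9, led by Aldh1a2, Tbx6 and Pcdh19, had 156 CPM of Gbx2 but 16.0 CPM of Nkx1-2. In the rostral class Gbx2 was at 29.2 CPM and Nkx1-2 at 18.5 CPM. Classes outside the neuroectoderm lay on both sides of these levels. Either gene was at 3.58 CPM in extraembryonic endoderm-like cells. Gbx2 was at 29.84 CPM in definitive endoderm-like cells (15.89 to 51.03), near its rostral level. Nkx1-2 was at 48.6 CPM in mesenchyme and extraembryonic mesoderm-like cells (38.16 to 61.01), above its rostral level.

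Ptn was at 241 CPM in the caudal class (214 to 271), 207 CPM in cluster 8 (174 to 245), 169 CPM in cluster 5 and 116 CPM in the rostral class (99.1 to 135.5). Outside these it was at 87.7 CPM in the anterior paraxial and pharyngeal mesoderm-like cells and 1.79 CPM in the extraembryonic endoderm-like cells. Of the 10 genes, 8 had their highest EHF level in one of the 2 named neuroectoderm-like classes, but the count was 5 with Leiden clustering and 0 at a resolution of 8, and for Sox1, Sox3, Irx3 and Ptn the intervals overlapped those of cluster 8. The share of all genes with their highest level in these classes was not computed. The genes were chosen as neural plate genes, so the count is a description and no enrichment is read from it.

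**Figure D2:**
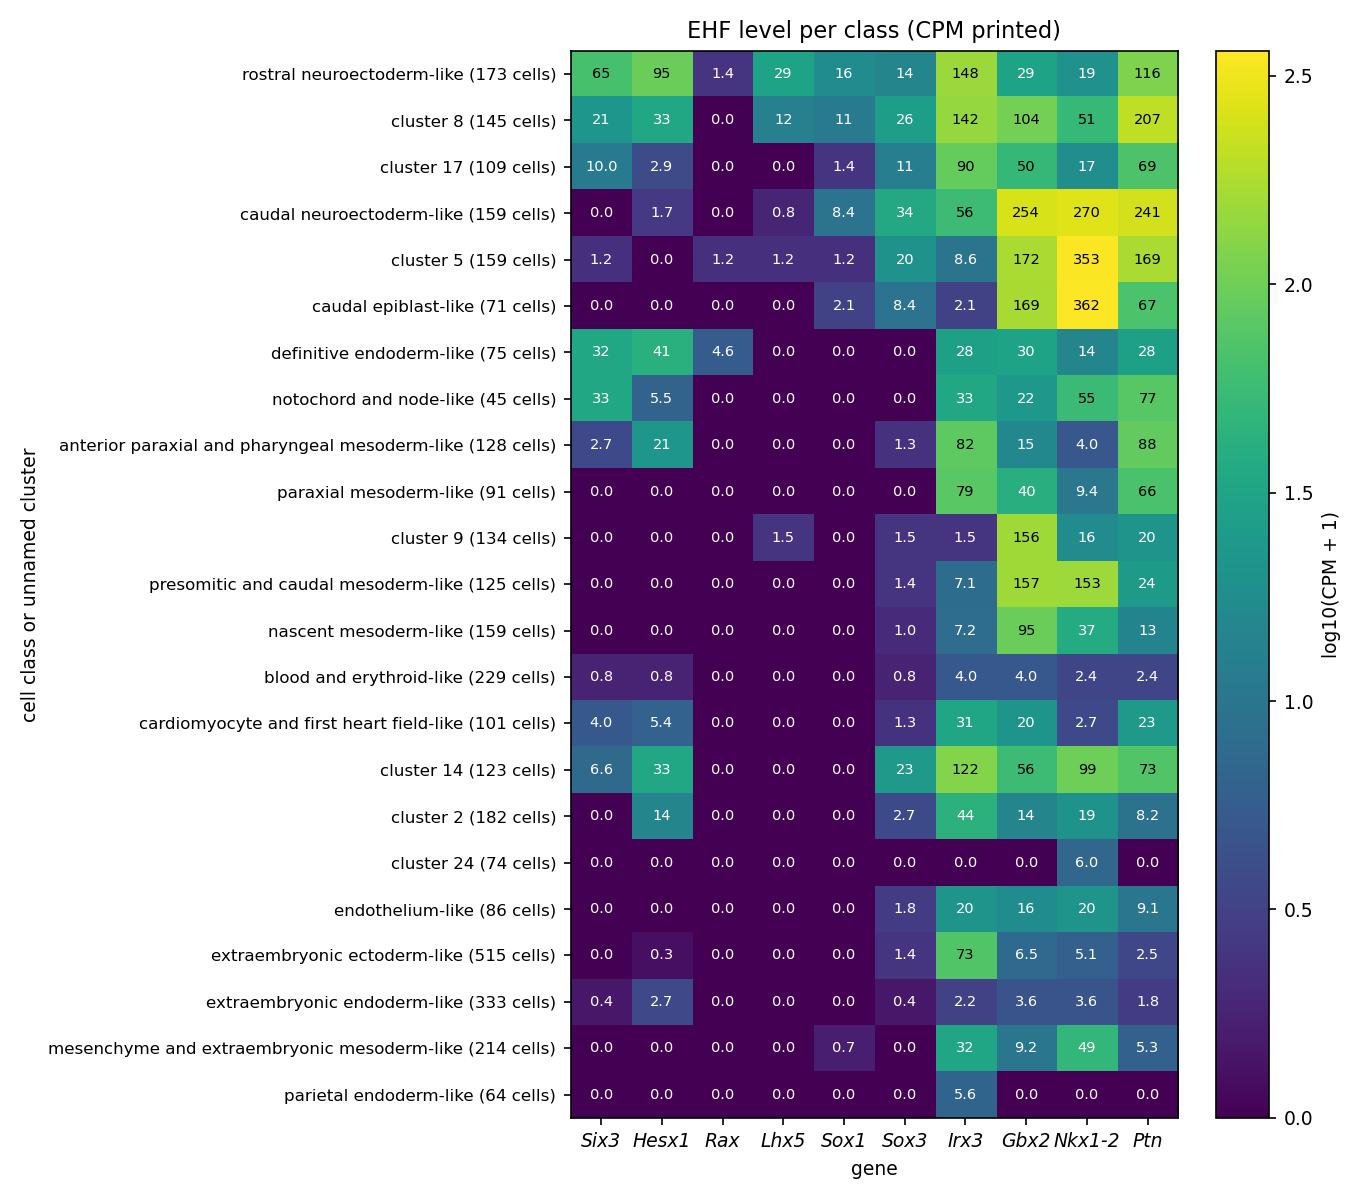
Level of the 10 genes in every class and unnamed cluster at EHF, as CPM in each square, coloured by log10(CPM + 1). Six3, Hesx1 and Lhx5 are highest in the rostral neuroectoderm-like row, Gbx2, Sox3 and Ptn in the caudal row, and cluster 8 holds both groups, with 21.2 CPM of Six3 and 104 CPM of Gbx2.

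Set directly against each other, the rostral class had more Six3, Hesx1, Lhx5 and Irx3 and the caudal class more Nkx1-2, Gbx2, Sox3 and Ptn, each by more than 2-fold. Six3, Hesx1 and Lhx5 passed the filter of 20 UMIs over both classes only through the rostral class, so their direction was fixed once they passed. Sox3 had 19 UMIs in the rostral class, just under the filter, so passing it did not fix its direction. Of all 7889 genes with at least 20 UMIs, 6.08% were past 2-fold in either direction, 2.90% higher and 3.18% lower in the rostral class, and the median log2 ratio was -0.02. Among the rostral genes, Six3 had 91 UMIs in the rostral class against 0 and was at least 25.7-fold higher, with the floor of 3 UMIs over the caudal class. Hesx1 had 133 against 2 UMIs, a log2 ratio of 5.82 (3.93 to 8.88). Lhx5 had 41 against 1 UMI, a log2 ratio of 5.12 (2.56 to 10.5). Irx3 was the other gene past 2-fold in that direction, with 208 against 66 UMIs and a log2 ratio of 1.42 (1.01 to 1.84).

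In the opposite direction, Nkx1-2 had a log2 ratio of -3.87 (-4.50 to -3.29) and Gbx2 of -3.12 (-3.63 to -2.65). Sox3, with 19 against 40 UMIs, had a log2 ratio of -1.31 (-2.19 to -0.49), and Ptn, with 163 against 286 UMIs, of -1.05 (-1.34 to -0.77). The intervals of Sox3 and Ptn reach within 2-fold, and with cluster 8 added to the rostral class, an alternative chosen after seeing the data, their log2 ratios were -0.95 and -0.73. Sox1 did not pass 2-fold, at 0.96 (-0.17 to 2.20). Rax, with 2 against 0 UMIs, had too few UMIs for a ratio.

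**Figure D3:**
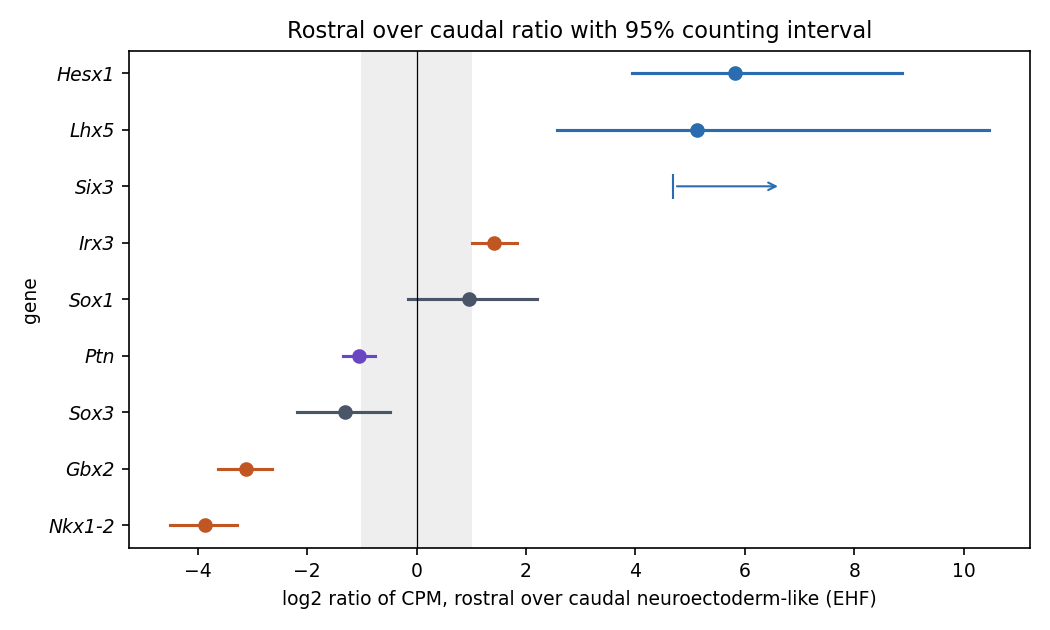
Log2 ratio of CPM in rostral over caudal neuroectoderm-like EHF cells for the 9 genes with at least 20 UMIs. Points are ratios, lines exact 95% intervals for counting error, the arrow marks the lower bound of Six3, and the grey band is within 2-fold. Nkx1-2 lies lowest at -3.87 and Hesx1 highest at 5.82.

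Other genes of the neural plate were taken from 4 lists. Of 14 tested genes of the midbrain, hindbrain and spinal list, 9 were more than 2-fold lower in the rostral class and 3 higher. Of all 7889 tested genes, 3.18% were lower and 2.90% higher. The 9 include Hoxb1, a hindbrain gene that also served to name the caudal class (log2 ratio -4.86, -6.76 to -3.45), and Cdx1, a posterior homeobox gene (log2 ratio -4.67, -5.28 to -4.13). Leaving out the markers of the 2 neuroectoderm classes, 6 of 11 were lower. Of these 6, Cdx1, Cdx2, Fst and Sp5 were on the marker lists of other classes. The 3 that were higher were Cyp26a1, which degrades retinoic acid (5.43), and the Iroquois genes Irx1 (2.28, from 23 against 4 UMIs) and Irx5 (1.90, 1.22 to 2.64), relatives of Irx3. Of 5 tested genes of the rostral neural list, Otx2 (6.17), Shisa2 (3.72) and Tcf7l1, a Wnt pathway repressor (2.14, 1.44 to 2.91), were higher and none was lower, and the first 2 of these named the rostral class. Sp8 was at 36.4 and 36.2 CPM. The median log2 ratio was 2.14 over the rostral list and -3.49 over the caudal one, beside -0.02 over all genes, but 3 of the 5 and 3 of the 14 genes had named the classes, and 2 rostral genes remain without them.

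Of 12 tested pan-neural genes and SoxB partners, Pou3f1 (2.19) and Sox2 (1.33) were higher in the rostral class and none was lower, and both were naming markers. Cdh2, which encodes N-cadherin, was at -0.81 (-1.60 to -0.04). Ptn has Mdk as its sister ligand, and of 3 tested genes of its receptors and partners none passed 2-fold. Mdk was at 936 CPM in the rostral and 1092 CPM in the caudal class (log2 ratio -0.22, -0.33 to -0.11), Ptprs at 19.3 and 22.8 CPM and Ncl at 2075 and 2098 CPM.

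Earlier stages were compared within classes, because whole libraries mix embryonic and extraembryonic cells. Epiblast-like cells numbered 895 at MS-LS and 672 at OB-EB, and no cluster was named neuroectoderm-like at either stage, whereas at a resolution of 8 the name rostral neuroectoderm-like went to 133 OB-EB cells. Six3, Hesx1, Rax and Lhx5 had 6, 7, 4 and 3 UMIs in the MS-LS epiblast-like cells and 6, 1, 1 and 1 in those of OB-EB, too few for the filter. In those cells Irx3 was past 2-fold, having passed the filter through its OB-EB level, with 10 UMIs at MS-LS (2.31 CPM) and 41 at OB-EB (22.6 CPM), a log2 ratio of 3.29 (2.27 to 4.45), where 11.0% of 9272 genes were past 2-fold, 5.19% higher and 5.81% lower. Ptn was at 26.1 and 49.0 CPM (log2 ratio 0.91, 0.49 to 1.32), and Sox3 at 23.3 and 23.7 CPM (0.02, -0.53 to 0.55). Gbx2 had 0 UMIs at MS-LS and 11 at OB-EB, under the filter, and 44 of its 120 UMIs at OB-EB lay in the primitive streak-like cells (33.5 CPM, 24.3 to 44.9).

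Between the OB-EB epiblast-like cells and the EHF rostral class, Six3, Hesx1, Lhx5, Gbx2 and Nkx1-2 passed the filter only through their EHF level, so their direction was fixed once they passed and their values are a description. Here 27.0% of 8143 genes were past 2-fold, 19.7% higher and 7.34% lower. The median log2 ratio of all genes was 0.37. Hesx1 went from 1 to 133 UMIs (0.550 to 94.9 CPM), Six3 from 3.30 to 64.9 CPM (log2 ratio 4.30, 3.12 to 5.78) and Lhx5 from 1 to 41 UMIs. Irx3 was 2.72 higher on the log2 scale, Gbx2 2.27, Nkx1-2 3.08 and Ptn 1.25. Sox3 stood at -0.80 (-1.67 to 0.01). Between the same OB-EB cells and the EHF caudal class, 28.7% of 7916 genes were past 2-fold, 20.8% higher and 7.90% lower. Irx3 (log2 ratio 1.30) and Ptn (2.30), which had over 20 UMIs on either side, were higher in the caudal class. Nkx1-2 (4 to 321 UMIs, 6.94) and Gbx2 (11 to 302 UMIs, 5.39) passed the filter through that class, while Sox3 was at 0.51 (-0.15 to 1.17). The EHF classes were both compared with the same OB-EB cells, so the 2 sets of ratios share their denominator.

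At OB-EB, clusters 17 and 21 (130 and 68 cells) remained unnamed, with rostral neuroectoderm and epiblast as their best scores, close to one another, and Otx2, Sox2, Zic5 and Pou3f1 detected in both. Cluster 17 had 4 UMIs of Six3 and 1 of Hesx1, against 45 of Ptn (62.7 CPM, 45.7 to 83.8) and 17 of Irx3 (23.7 CPM), and cluster 21 had none of Six3 or Hesx1. Neither of these clusters held Hesx1 above the floor of 3 UMIs.

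**Figure D4:**
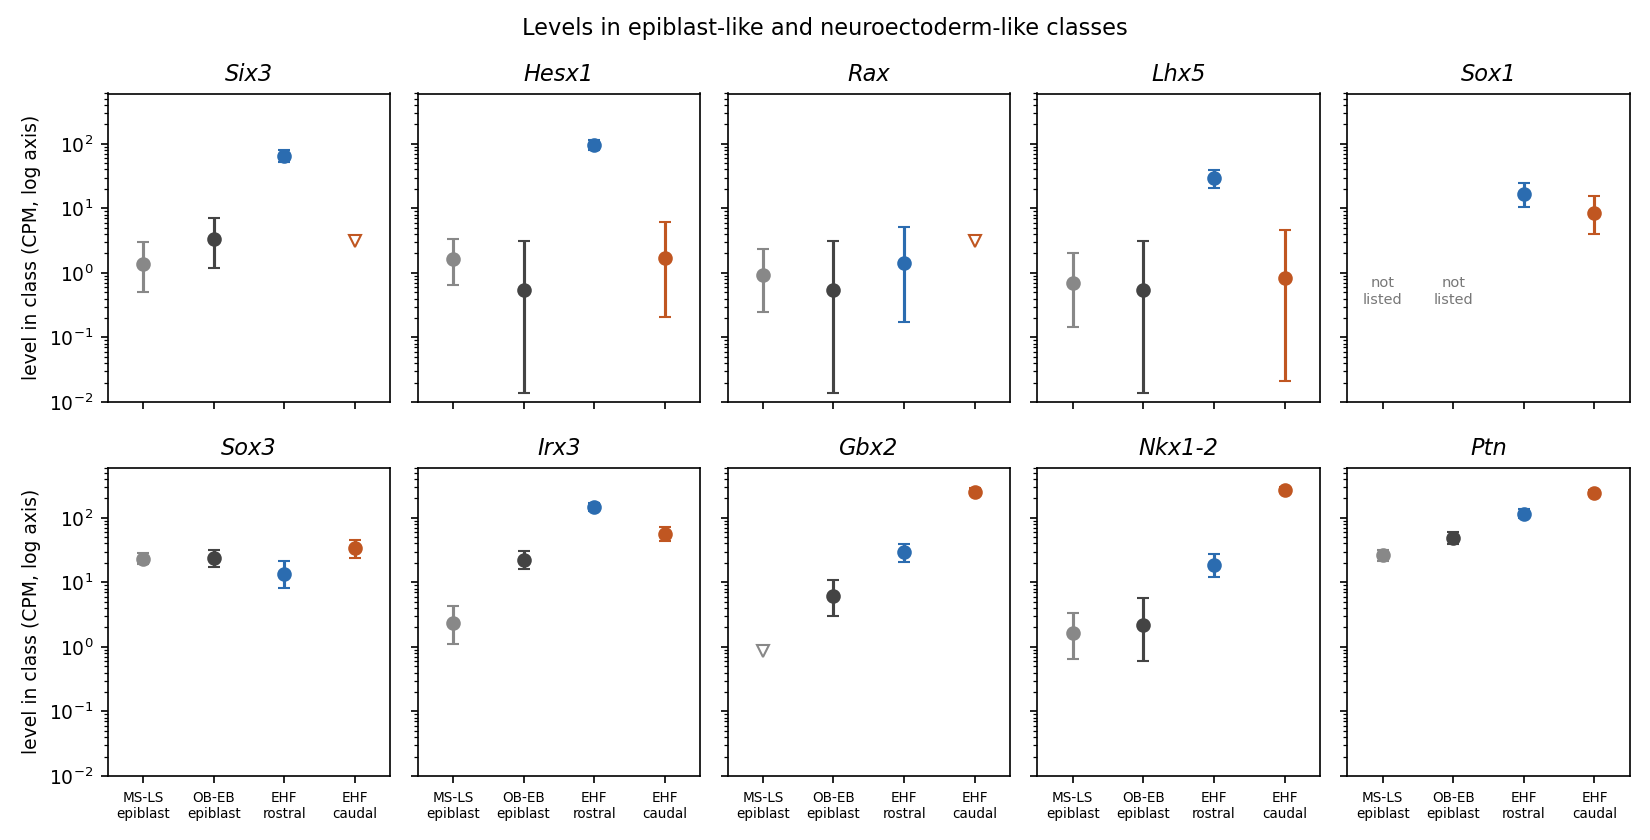
Level in the epiblast-like cells of MS-LS and OB-EB and in the EHF rostral and caudal neuroectoderm-like cells, in CPM on a log axis with exact Poisson 95% intervals. Open triangles are upper limits where no UMI was found. Hesx1 goes from 0.550 CPM at OB-EB to 94.9 CPM in the rostral class, and Sox3 stays between 13.6 and 33.7 CPM.

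Before EHF, Six3 and Hesx1 had their highest level in definitive endoderm-like cells. At MS-LS, 97 of 124 Hesx1 UMIs were in the definitive endoderm-like cells (295 cells, 71.7 CPM, 58.1 to 87.4), and epiblast-like cells had 1.62 CPM. At OB-EB these cells held 22 of 28 Hesx1 UMIs (28.2 CPM, 17.7 to 42.7) and 23 of 50 Six3 UMIs (29.5 CPM, 18.7 to 44.2), and at MS-LS 15 of 29 Six3 UMIs (11.1 CPM, 6.20 to 18.3). The markers that named this class include Cer1, Hhex and Foxa2, which anterior visceral endoderm also expresses, so these endoderms are not told apart. At EHF the definitive endoderm-like class had 32.1 CPM of Six3 and 41.3 CPM of Hesx1, whose intervals overlap those at OB-EB, while the rostral class held 91 of 142 Six3 and 133 of 221 Hesx1 UMIs.

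Sox3 and Irx3 were also found in extraembryonic ectoderm-like cells. Sox3 was at 29.6 CPM there at MS-LS (23.9 to 36.4), near its level in the epiblast-like cells (23.3 CPM, 19.0 to 28.3), at 20.5 CPM at OB-EB and at 1.41 CPM at EHF. Irx3 was at 36.5, 62.4 and 72.8 CPM at the 3 stages in the same class. The lower level of Sox3 in the EHF library stood beside this lower level in extraembryonic ectoderm-like cells, and its part in the whole-library value was not tested.

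Rostral and caudal genes were then compared cell by cell at EHF. Of 199 cells with a UMI of Six3, Hesx1, Rax or Lhx5, 106 (53.3%, 46.1 to 60.4) also had one of Irx3, Gbx2 or Nkx1-2, against 40.2% of the 3295 other cells. Only 31 of these 199 cells had Gbx2 or Nkx1-2, and the other overlaps were with Irx3. A UMI of Irx3 was found in 39 of 87 cells with Six3 (44.8%), 58 of 129 with Hesx1 (45.0%) and 32 of 47 with Lhx5 (68.1%, 52.9 to 80.9), against 18.7%, 18.4% and 18.7% of cells without the respective gene. Gbx2 was found in 5 of the cells with Six3 (5.75%, 1.89 to 12.9) and 7 of those with Hesx1 (5.43%), against 19.08% and 19.3% of cells without them. It was found in 7 of 47 cells with Lhx5 (14.9%, 6.20 to 28.3) and in 18.8% of those without, which did not differ beyond counting error. Gbx2 or Nkx1-2 was thus found in 15.6% of the cells with a rostral gene (10.8 to 21.4) and in 27.3% of the others (25.8 to 28.9). The 31 cells had a median of 7887 UMIs and the other 168 had 6061, and 7 of the 31 were among the 5% of cells with the highest doublet score. Depth was addressed by thinning, and the 5% of cells with the highest doublet score were left out in an alternative setting. The part of doublets in the overlap given here, without thinning, was not tested.

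After thinning to 3500 UMIs, which left out 755 shallower cells, Gbx2 or Nkx1-2 was found in 9 of 121 cells with a rostral gene (7.44%, 3.46 to 13.7) and in 24.2% of 2618 cells without one (22.6 to 25.9). Different tissues enter both groups when all cells are used, so the comparison was repeated within the rostral class. There, 1 of 61 thinned cells with a rostral gene had Gbx2 or Nkx1-2 (1.64%, 0.04 to 8.80), against 21 of 110 without (19.09%, 12.2 to 27.7). Without thinning these were 9 of 91 (9.89%, 4.62 to 18.0) and 26 of 82 (31.7%, 21.9 to 42.9). This difference depended on which cells formed the class. With Leiden clustering the shares were 3.33% of 60 cells and 4.29% of 70 cells, with overlapping intervals, and at a resolution of 8 they were 4.17% and 10.9%.

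Irx3 did not separate from the rostral genes in this way. Among thinned rostral cells, Irx3 was found in 28% of those with Six3 (12.1 to 49.4) and 34.9% of those without (27.2 to 43.3), and in 30% of those with Hesx1 and 35.1% of those without. The numbers of cells leave room for differences of the width of these intervals. Ptn was found in 20% of thinned cells with Six3 (6.83 to 40.7) and 36.3% without (28.5 to 44.7), which also overlap. Hesx1 was found more often in cells with Six3 than in cells without it. Of the former, 48% had Hesx1 (27.8 to 68.7), against 19.2% of the latter (13.1 to 26.5). In the caudal class, Nkx1-2 was found in 82.8% and Ptn in 77.6% of the 134 cells with Gbx2. These are near the shares over all 159 cells of the class, 79.25% and 77.36%. Irx3 was found in 27.67% of the 159 cells. After thinning, Nkx1-2 was found in 59.1% of caudal cells with Gbx2 and 55.6% of those without, so presence of one did not go with presence of the other beyond counting error.

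**Figure D5:**
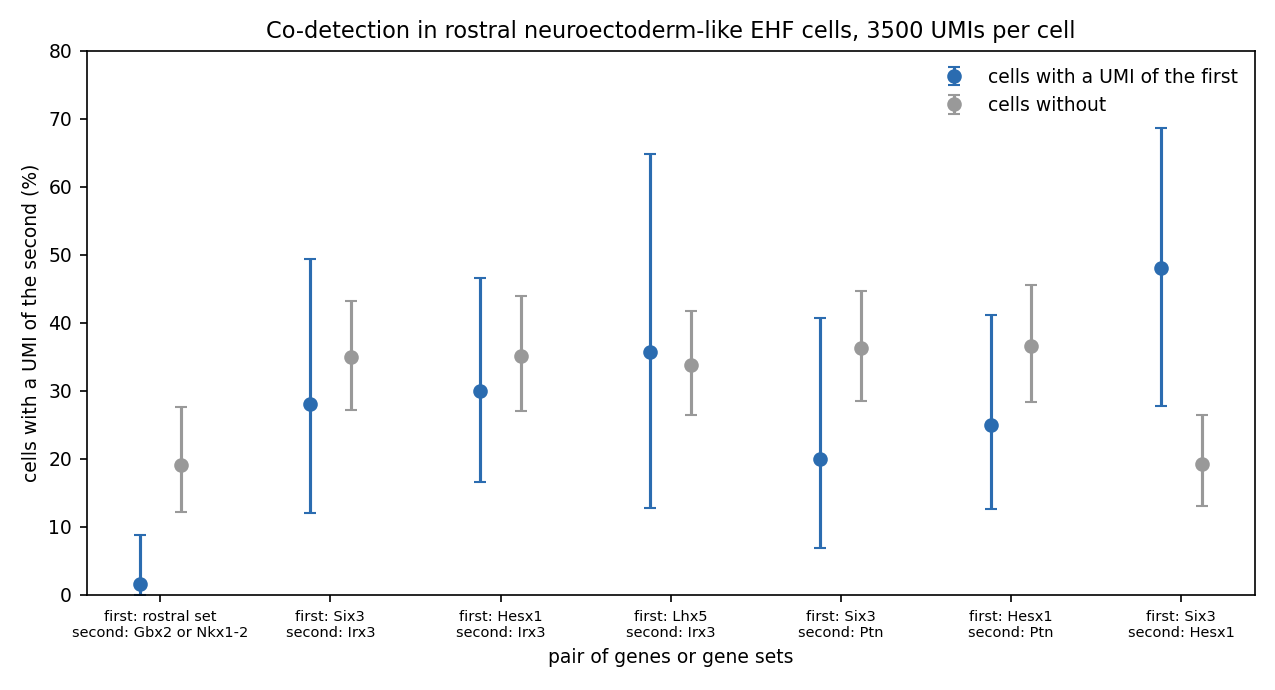
Share of rostral neuroectoderm-like EHF cells, each thinned to 3500 UMIs, with a UMI of the second gene among cells with and without a UMI of the first, with exact binomial 95% intervals. Gbx2 or Nkx1-2 is at 1.64% against 19.09%, Hesx1 at 48% against 19.2% with and without Six3, and the Irx3 and Ptn pairs overlap.

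The genes whose levels most resembled each member over the 30 EHF clusters were listed among 9449 genes with at least 100 UMIs, by Pearson correlation of log2(CPM + 1). The clusters are of 1 library and differ in depth, so the correlations are descriptions. Six3 was most like Tal2 (r = 0.80) and Hesx1 (r = 0.76), and Hesx1 most like Six3 and Shisa2 (r = 0.72). Sox3 was most like Hes3 (r = 0.88), a Hes repressor, and Slc7a3 (r = 0.86), and Sox1 and Lhx5 shared Elavl3 (r = 0.78 and 0.65) and Slc7a3. Irx3 was most like Tcf7l1 (r = 0.79) and Zfp462 (r = 0.76). Gbx2 was most like Cdx1 (r = 0.91) and Paip2 (r = 0.90), Nkx1-2 most like Pmaip1 (r = 0.86) and Cxx1b (r = 0.84), and Ptn most like Gm11627 (r = 0.90) and Paip2 (r = 0.89). Rax, with 5 UMIs, was most like Trh (r = 0.62) and Fzd5 (r = 0.59), which rests on 3 clusters with any UMI.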

How the data were processed

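Single cells of 3 stages were profiled with the Chromium 3′ assay. Per the labels and the study's methods, the authors aligned reads to GRCm38 with Cell Ranger (3.0.2 in the submitters' processing notes) and deposited raw UMI counts per gene and cell without normalization. The methods also name filters on genes, UMIs and mitochondrial share. Recomputed here, the last would leave 3603, 3953 and 3449 of the deposited cells, and all deposited cells were used. The median depth per cell ranged from 2620.5 to 5584 UMIs. Each library was clustered in Seurat 5.3.0 (R 4.3.3) after log normalization to 10000 UMIs per cell, with 2000 variable genes from which the 10 genes were held out, 50 principal components and a resolution of 4.5. A cluster took the name of its best-scoring marker list if at least 3 markers were found in 20% of its cells at 2 times the level elsewhere, unless markers of another list were more numerous among its leading genes. Otherwise it remained unnamed. UMIs were summed per class, as CPM. A ratio was called past 2-fold among genes with at least 20 UMIs over both classes, and a class without UMIs took a floor of 3. Doublets were kept in the main values, and the 5% of cells with the highest Scrublet score were left out in an alternative. The calculation was tested on simulated data with known folds. The named genes were the 10, the 3 with the largest ratio in each direction of each list, and the 2 most alike per gene, of which 1 is not reported here. The 10 genes and all lists were chosen with earlier results of these data known. Analyses were run in Python 3.11.15 with scipy 1.17.1 and scanpy 1.11.5.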

Additional observations from a re-analysis of the deposited data

How the results depend on the processing

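Over 12 counts and shares and 26 other values, 346 of 369 values under other settings kept their side of 2-fold, or moved by less than the limits used. A ratio within 2-fold under both settings counted as kept even if its sign changed. With a ratio past 2-fold under either setting, 0 reversed. Among OB-EB over MS-LS epiblast-like cells, 1 gene was past 2-fold, but 0 were among cells called female, where Irx3 had under 20 UMIs, and 2 were at resolution 2. At resolution 8, which left 87 EHF cells named rostral and none named caudal, 0 of the 10 genes and 0 rostral genes had their highest level in a neuroectoderm-like class, no rostral over caudal ratio could be made, and 133 OB-EB cells were named rostral. With Leiden clustering the former count was 5, against 8. The share with Gbx2 or Nkx1-2 among rostral-class cells without a rostral gene was 10.9% at resolution 8 and 4.29% with Leiden clustering, against 19.09%. Over all EHF cells, thinning to 2000 UMIs gave 3.26% with and 15.9% without a rostral gene, against 7.44% and 24.2%. Sox1 passed 2-fold among female cells, with per-cell means and at resolution 2 (1.002, 1.10 and 1.31 on the log2 scale). Sox3 and Ptn fell within 2-fold at resolution 2 (-0.90 and -0.72). Adding unnamed clusters to the named classes was chosen after seeing the data. The epiblast cells the study lists were not used as an alternative, because the OB-EB list is held in part here. No paired analysis was possible because each stage is 1 library. Leaving out a replicate was likewise not possible. The 5 UMIs of Rax at EHF allow no order among classes.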
